A study of Danio rerio with 14 samples.

Results

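Heat shock proteins and their J-domain partners are the chaperones that help other proteins fold. They were followed here across whole zebrafish embryos with or without BMP signaling. The genes were chosen by symbol, as those that begin with hsp, dnaj or hsf, or with bag or cct followed by a digit, and where a gene had several transcripts in the table the one with the highest mean count was used. This gave 85 genes of the 13830 in the table. They are 42 J-domain genes, 11 of the HSP70 class, 7 BAG genes, 7 subunits of the CCT complex, 6 small heat shock genes, 4 HSP90 genes, 4 heat shock factors, hspd1 and hspe1 of the mitochondrial chaperonin, and 2 others, hspbap1 and hspbp1. A total of 72 had enough reads to be tested in at least 1 comparison.

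In the cytosol, HSP70 proteins bind unfolded stretches of other proteins, J-domain proteins bring them their clients and start ATP hydrolysis, BAG proteins release the nucleotide, HSP90 takes over part-folded clients, and the CCT ring folds actin and tubulin. Separate chaperones serve the endoplasmic reticulum (ER), among them hspa5 (BiP) and hsp90b1 (Grp94), and the mitochondria, among them hspa9 (mortalin), hspd1 (Hsp60) and hspe1 (Hsp10). Some members are made at all times, and others, such as hsp70.3, hsp70l and hsp90aa1.2, are known as genes that the heat shock factors switch on under protein stress.

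RNA-seq covered 6 groups of embryos. There were 3 libraries of CHX-treated embryos labelled bmp7 mutant given BMP2/7 protein and 3 of those given CHX alone, each from 50 embryos. Untreated bmp7 mutants and wild-type embryos gave 2 libraries each at 8 hpf (mid-gastrula, 70% epiboly) and 2 each at 6 hpf (early gastrula, shield), each from 40 embryos. The mutants carry bmp7a sb1aub in homozygous form and, per the study's methods, come from homozygous adults. The methods list TU as the wild-type line, without naming the parents of the wild-type libraries. The mutation and the parents thus cannot be told apart. The headings of the table call all libraries labelled bmp7 mutant, with CHX or without, Aub-/-. They call the wild-type libraries Aub-/+, which reads as heterozygous. Whether those embryos carried a mutant copy is not stated. CHX (cycloheximide, an inhibitor of translation) was given at 10 µg/ml from 4 hpf for 30 minutes, and 10 pg of human BMP2/7 heterodimer was then injected between the cells. The labels give these libraries a stage of 4 hpf, the age at which CHX was started. The study's methods state a fixed interval from injection to collection, so the embryos were older than 4 hpf when collected. Their age at collection is not itself given. No group received CHX and an injection without protein.

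The libraries held from 5034277 counts (mutant replicate 1 at 8 hpf) to 23153881 counts (wild-type replicate 2 at 6 hpf) each. As a check of the labels, bmp7a stood at 1.89 and 3.33 CPM in mutants against 60.1 and 63.9 CPM in wild-type embryos at 6 hpf, and at 0.470 and 0.882 CPM in mutants against 40.3 and 43.8 CPM in wild-type embryos at 8 hpf. Levels in CPM are counts scaled to a common library size, with TMM factors estimated over all 14 libraries. In the CHX libraries, all labelled mutant, bmp7a stood at 14.9 to 28.9 CPM, above untreated mutants at 6 hpf (log2 fold change 2.84 for CHX alone, adjusted p = 5.64e-06) and below untreated wild-type embryos. Treatment and experiment cannot be told apart from genotype here, so this level cannot check the mutant label of the CHX libraries. They are called by that label, which the headings share. The ventral genes szl, foxi1, bambia, ved and gata2a were all lower in mutants at both stages and all higher with BMP2/7 protein. Neither labels nor methods say whether the 2 or 3 libraries of a group came from separate crosses, so the tests measure the spread between these libraries. In whole-embryo RNA, fewer cells of a type and less RNA per cell cannot be told apart.

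At 6 hpf, 5 members that serve the ER and the stress-inducible hsp90aa1.2 and hsp70.3 were lower in bmp7 mutants than in wild-type embryos. So were 3 that serve mitochondria (hspe1, hspd1 and hspa9). Other members that serve these organelles, most CCT subunits and the BAG genes and heat shock factors tested did not pass the test. Of the 71 members tested, 13 were called at an adjusted p under 0.05, 12 lower and 1 higher in mutants. Over all 10029 genes tested, with 1 transcript per gene, 15.4% were called. In the lower direction the background was 9.09%, and in the higher direction it was 6.34%. The median log2 fold change of the members was -0.35, against -0.04 for all genes. The libraries of the genotypes did not overlap in 42 of the 71 members and in 61.6% of all genes, so lack of overlap was common. Leaving out 1 library gave 5 to 12 called members, with 8 without mutant replicate 1 and 5 without mutant replicate 2, where 5.52% and 2.50% of all genes were called.

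The chaperones of the ER lumen are given first. hsp90b1 (NM_198210), which folds secreted and membrane proteins, stood at 48.4 and 49.5 CPM in mutants and at 168 and 169 CPM in wild-type embryos. The replicates of each genotype were nearly equal and the genotypes did not overlap, with a log2 fold change of -1.82 (SE, the standard error, 0.20, adjusted p = 0.0021). hspa5 (NM_213058), the ER HSP70, stood at 88.2 and 138 CPM in mutants against 406 and 513 CPM in wild-type embryos, so both mutant libraries were under both wild-type ones. Its log2 fold change was -2.05 (SE 0.33, adjusted p = 0.00795). dnajb11, a J-domain partner of hspa5 in the ER, stood at 38.8 and 48.7 CPM in mutants and 89.9 and 127 CPM in wild-type embryos, again without overlap, and fell by 1.34 on the log2 scale (adjusted p = 0.015).

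Another pair of members that serve the ER, dnajb9b and hspa13, was lower too. dnajb9b, a gene of the ERdj4 type that helps remove misfolded ER proteins in mammals, stood at 3.78 and 6.21 CPM in mutants against 29.0 and 31.7 CPM in wild-type embryos (log2 fold change -2.63, adjusted p = 0.00763). hspa13, an HSP70 of the microsome (Stch in mammals), stood at 4.50 and 4.54 CPM in mutants against 17.6 and 20.8 CPM in wild-type embryos (log2 fold change -2.12, adjusted p = 0.00432). For both genes the genotypes were far apart, and the replicates were close except those of dnajb9b in mutants. dnajc10, an ER J-domain protein that reduces disulfides, stood at 48.1 and 56.6 CPM in mutants and 72.4 and 96.3 CPM in wild-type embryos and was not called (adjusted p = 0.0715). hsp90b1, hspa5 and hspa13 kept their calls when any 1 library was left out. The call of dnajb11 was lost without wild-type replicate 1 (adjusted p = 0.07) or mutant replicate 2 (adjusted p = 0.0939), and that of dnajb9b without mutant replicate 2 (adjusted p = 0.0544).

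Genes outside the family that serve the same compartment were counted from a list of ER folding genes. Single genes outside the family, here and below, were not followed when a library was left out or the processing changed. Of the 12 tested, 4 were lower in mutants, namely pdia4 and p4hb, which form disulfide bonds, calr3a, a calreticulin, and serpinh1a, a collagen chaperone. Their log2 fold changes were -2.09, -1.16, -1.01 and -1.56, and the median of the list was -0.82. hyou1, a large HSP70 relative that recharges hspa5 and was counted in a separate list of HSP70 partners, fell by 0.89 (adjusted p = 0.0258). In that list the mitochondrial exchange factor grpel2 was higher, at 225 and 219.5 CPM in mutants against 116.6 and 100.1 CPM in wild-type embryos (log2 fold change 1.01, adjusted p = 0.0146). Of 7 regulators of ER and integrated stress, 2 were lower, atf6 (log2 fold change -3.34) and ddit3 (log2 fold change -1.25). In the higher direction, pfdn5 (log2 fold change 1.63) and pfdn1 (log2 fold change 0.68) were the 2 called of 6 chaperonin and prefoldin genes tested.

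**Figure D1:**
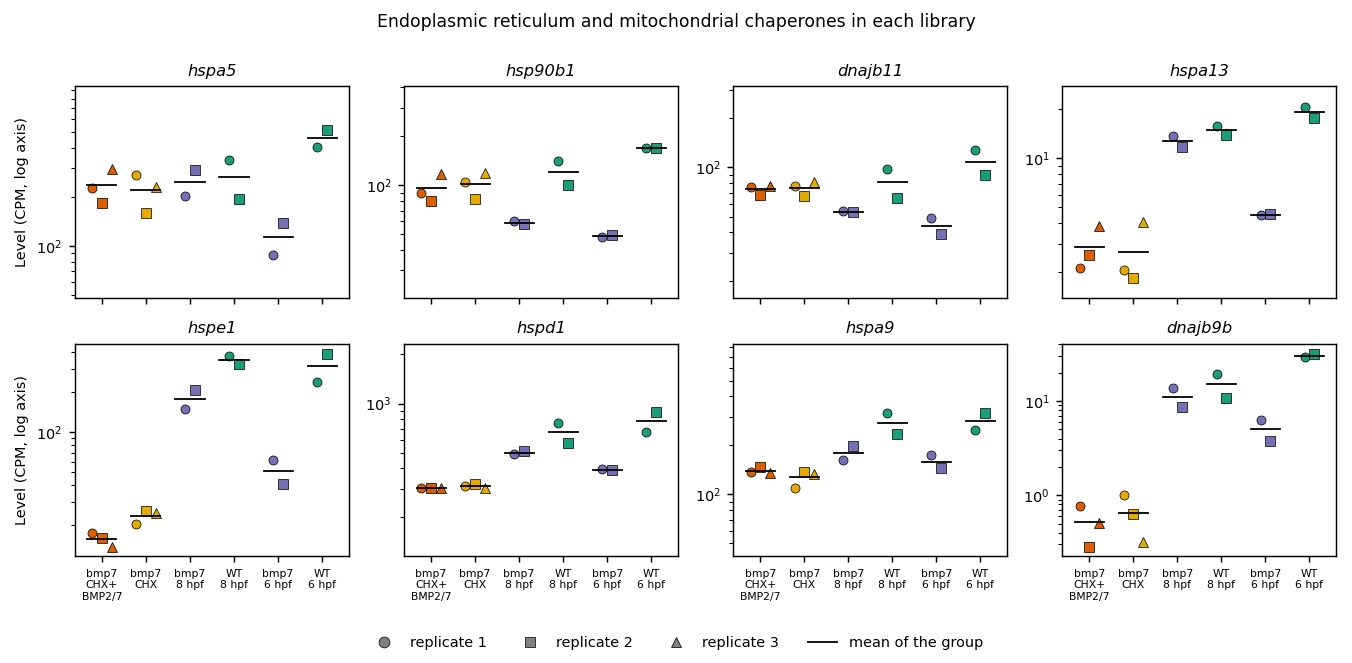
Levels of 8 ER and mitochondrial chaperones in each of the 14 libraries (CPM on a log axis), by group, with the replicate number as the symbol and the group mean as a bar. The 8 drawn are those called lower in mutants at 6 hpf, so the order of genotypes there follows from the choice. Members of mitochondria with higher means in mutants, dnajc30b and dnajc19, are not drawn. For hspe1 the CHX libraries lie lowest, between 13.9 and 25.7 CPM.

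Of the members that serve mitochondria, hspe1, hspd1 and hspa9 were lower in mutants as well. hspe1 (NM_131526), the lid of the mitochondrial chaperonin, stood at 40.8 and 61.9 CPM in mutants and at 239 and 388 CPM in wild-type embryos, with no overlap, and its log2 fold change was -2.64 (SE 0.30, adjusted p = 0.0021). hspd1 (NM_181330), its ring partner, stood at 391 and 396 CPM in mutants against 668 and 885 CPM in wild-type embryos (log2 fold change -1.01, adjusted p = 0.0146). In the RefSeq annotation of GRCz12tu, hspd1 and hspe1 are neighbours. hspa9, the mitochondrial HSP70, stood at 144 and 174 CPM in mutants and 248 and 316 CPM in wild-type embryos (log2 fold change -0.86, adjusted p = 0.0318). The 3 genes thus had the same order of genotypes with different sizes, and hspe1 kept its call when any 1 library was left out. The call of hspd1 was lost without mutant replicate 1 (adjusted p = 0.0602) or 2 (adjusted p = 0.077), and that of hspa9 without wild-type replicate 2 (adjusted p = 0.094), mutant replicate 1 (adjusted p = 0.0718) or mutant replicate 2 (adjusted p = 0.161). dnajc30b and dnajc19, J-domain genes that serve mitochondria in mammals, were not called and had higher means in mutants, dnajc30b at 8.01 and 11.9 CPM in mutants against 3.29 and 5.53 CPM in wild-type embryos (adjusted p = 0.0633) and dnajc19 at 6.84 and 13.5 CPM in mutants against 3.95 and 7.02 CPM in wild-type embryos (adjusted p = 0.201). The 5 other mitochondrial quality control genes tested, mostly proteases, had a median log2 fold change of 0.41, above 0.

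Of the stress-inducible genes of the cytosol, hsp90aa1.2 and hsp70.3 differed by more, with less even replicates. hsp90aa1.2 (NM_001045073), an inducible HSP90, stood at 12.3 and 62.0 CPM in mutants and at 1285 and 2148 CPM in wild-type embryos. The genotypes were far apart although the mutant replicates also lay far from each other, and the log2 fold change was -5.56 (SE 1.05, adjusted p = 0.0127). Its neighbour in GRCz12tu, hsp90aa1.1, was not called. hsp90aa1.1 stood at 4.86 and 8.04 CPM in mutants against 4.73 and 6.08 CPM in wild-type embryos. How reads were split between these neighbours was not tested. hsp70.3 (NM_131397), an inducible HSP70, stood at 0.284 and 9.81 CPM in mutants against 120 and 189 CPM in wild-type embryos (log2 fold change -4.96, SE 1.43, adjusted p = 0.0464). It lies next to hsp70.2 in GRCz12tu, a gene of the same family that was not analysed here, so how reads were split between them is uncertain.

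dnajb2, a J-domain gene with a ubiquitin-interacting tail in mammals, had 3 counts over both mutant libraries and 292 over both wild-type libraries. In CPM these were 0 and 0.270 in mutants and 7.25 and 8.45 in wild-type embryos. At matched depth this is a ratio of 0.0175, with a 95% counting interval of 0.00359 to 0.0517. The interval covers counting error only. The call of dnajb2 (adjusted p = 0.00436) held without any 1 library, while that of hsp90aa1.2 was lost without mutant replicate 2 (adjusted p = 0.0703). That of hsp70.3 was lost without wild-type replicate 1 (adjusted p = 0.107), mutant replicate 1 (adjusted p = 0.0563) or mutant replicate 2 (adjusted p = 0.173).

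Of the exchange factors of HSP70, hspbp1 and hspa4a had lower mean levels in mutants and did not pass the test. hspbp1, a nucleotide exchange factor of HSP70, stood at 29.5 and 36.4 CPM in mutants and 112.4 and 124.5 CPM in wild-type embryos, and just missed the threshold (log2 fold change -1.88, adjusted p = 0.05002). hspa4a, an HSP110-type exchange factor, stood at 135 and 151 CPM in mutants and 354 and 479 CPM in wild-type embryos (log2 fold change -1.57, adjusted p = 0.0985). In both genes the replicates were close and the genotypes separate. Of 13 alternatives, hspbp1 was called lower in 6 and hspa4a in 3. For both these included edgeR with the 2 groups alone (adjusted p = 0.0119 and 0.0172). Among HSP90 co-chaperones outside the family, 3 of 18 were lower in mutants, the ATPase activators ahsa1a (log2 fold change -3.67) and ahsa1b (-1.40) and the CHORD gene chordc1a (-3.41), and 1 was higher, aip (log2 fold change 1.30). hsp70l, another inducible HSP70, stood at 0.378 and 6.03 CPM in mutants against 1.02 and 29.5 CPM in wild-type embryos, where the genotypes overlapped. They overlapped for dnajb1a and bag3 as well. dnajb1a stood at 11.3 and 11.9 CPM in mutants against 4.19 and 12.8 CPM in wild-type embryos. bag3 stood at 7.47 and 11.5 CPM in mutants against 8.14 and 10.5 CPM in wild-type embryos. dnajb1b stood at 355 and 527 CPM in mutants against 586 and 668 CPM in wild-type embryos. None of these genes was called.

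Most of the abundant constitutive members were not called between genotypes at 6 hpf. hsp90ab1 (NM_131310), the constitutive HSP90 and one of the most abundant members, stood at 4373 and 4507 CPM in mutants and 5264 and 6296 CPM in wild-type embryos (adjusted p = 0.0828). hspb1 (NM_001008615), the small heat shock gene that binds actin filaments in mammals, stood at 4046 and 4051 CPM in mutants and 5142 and 6289 CPM in wild-type embryos (adjusted p = 0.0879). Neither passed the test, though neither overlapped. The 7 CCT subunits summed to 2575 and 2859 CPM in mutants and to 2973 and 3150 CPM in wild-type embryos. Of these, cct4 was lower, at 184 and 263 CPM in mutants against 363 and 392.3 CPM in wild-type embryos (log2 fold change -0.79, adjusted p = 0.0397), a call lost when any 1 of the 4 libraries was left out (adjusted p of 0.0564 to 0.173). hsf1, the main heat shock factor, stood at 332 and 432 CPM in mutants and 354 and 438 CPM in wild-type embryos, and hsf2 at 68.3 and 79.5 CPM in mutants and 76.0 and 81.0 CPM in wild-type embryos, both overlapping between genotypes. The 1 member higher in mutants was dnaja2l, at 211 and 243 CPM in mutants against 138 and 151 CPM in wild-type embryos (log2 fold change 0.62, adjusted p = 0.0378), which was also lost when any 1 library was left out (adjusted p of 0.0613 to 0.179).

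All members together held 1.49% and 1.504% of the counts of mutant libraries at 6 hpf, with 1 transcript kept per gene, against 2.14% and 2.35% of those of wild-type libraries. This difference was uneven between classes. The HSP90 genes summed to 4488 and 4577 CPM in mutants against 7584 and 7756 CPM in wild-type embryos. The J-domain genes summed to 2963 and 2748 CPM in mutants against 2993 and 2735 CPM in wild-type embryos. Summed levels of the 2 measured of 3 yolk syncytial layer markers ran from 105 to 225 CPM in mutants and from 237 to 531 CPM in wild-type embryos, though neither gene was called (median log2 fold change -1.35). Those of the 5 measured of 6 enveloping layer markers ran from 6990 to 7476 CPM in mutants and from 5736 to 7391 CPM in wild-type embryos. The part of these tissues in the chaperone differences was not tested.

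At 8 hpf, 1 of 71 members was called between genotypes, against 3.15% of all genes tested, 2.02% lower and 1.13% higher. hsp90b1 stood at 57.7 and 60.0 CPM in mutants and 101 and 141 CPM in wild-type embryos, without overlap (log2 fold change -1.03, SE 0.20, adjusted p = 0.0313). Its call was lost without wild-type replicate 1 (adjusted p = 0.142), mutant replicate 1 (adjusted p = 0.2) or mutant replicate 2 (adjusted p = 0.227). hspe1 stood at 151 and 207 CPM in mutants against 326 and 375 CPM in wild-type embryos, the same order as at 6 hpf, which was not called (log2 fold change -0.96, adjusted p = 0.0968). hspa5 overlapped at this stage, at 202 and 292 CPM in mutants and 194 and 337 CPM in wild-type embryos. hsf2 stood at 31.3 and 33.1 CPM in mutants and 52.0 and 90.8 CPM in wild-type embryos (log2 fold change -1.15, adjusted p = 0.0556). The median log2 fold change of the members was -0.10 at 8 hpf, against -0.02 for all genes. The genotypes did not overlap in 36 of 71 members and in 57.5% of all genes. Outside the family, p4hb was lower (log2 fold change -1.24) and pfdn5 higher (log2 fold change 1.34) in mutants.

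**Figure D2:**
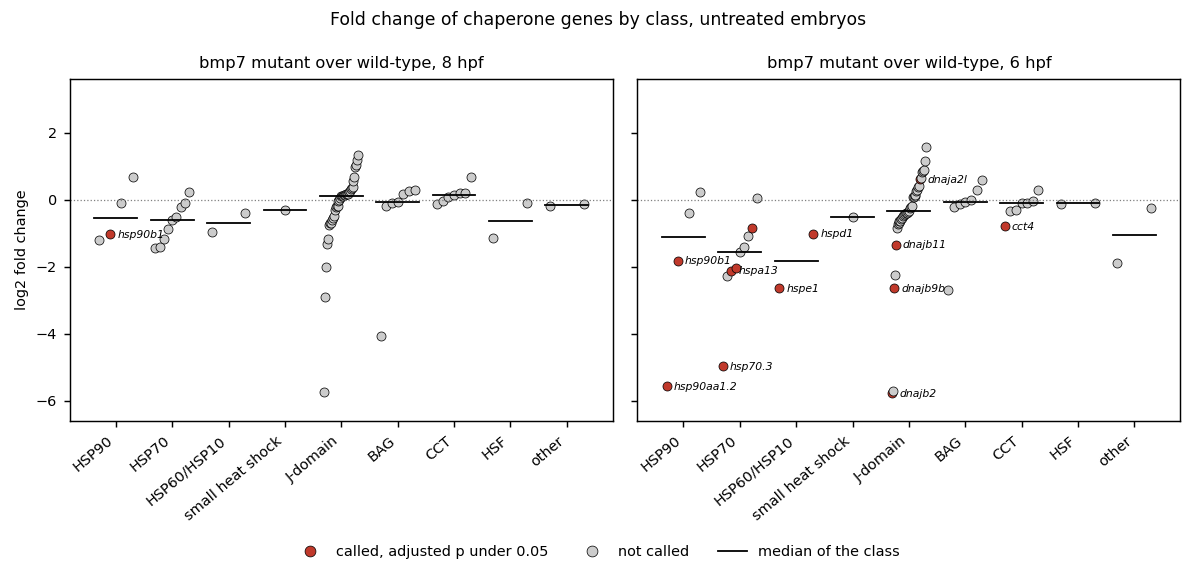
Log2 fold change of mutant over wild-type for the 71 members tested, by class, at 8 hpf (left) and 6 hpf (right), with 1 point per gene, called genes in red and the class median as a bar. Genes at 0 counts in a group, such as dnajc25 in mutants, are drawn at their fitted value, which is no estimate of size. At 6 hpf 13 points are red, 12 of them under 0, and at 8 hpf 1 is red, hsp90b1.

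The wild-type replicates at 8 hpf disagreed on the stress-inducible genes. hsp90aa1.2 stood at 1984 CPM in replicate 1 and 264 CPM in replicate 2, hsp70.3 at 152 and 6.22 CPM, and hsp70l at 67.7 and 0.203 CPM. Some J-domain partners of HSP70 moved with them, dnajb1b (NM_199773) at 1331 and 116.7 CPM and dnajb1a at 43.2 and 5.75 CPM. So did hspa4a at 643 and 120 CPM, hspbp1 at 130 and 27.5 CPM and bag3, an HSP70 co-chaperone, at 31.6 and 8.86 CPM. In each of these genes replicate 1 was the high library. For the J-domain genes dnajc7 and dnajb6a the replicates were close, with folds of replicate 1 over replicate 2 of 1.06 and 1.17. Of 67 members with a mean of at least 1 CPM, 9 differed over 4-fold between the wild-type libraries at 8 hpf, 7 of them with replicate 1 high and 2, hspa8 and dnajc9, with replicate 2 high. The 9 are 13.4% of these members, against 1.97% of 9436 genes at that level. In the other groups 3 to 6 members passed 4-fold, 4.48% to 8.96%, against 1.80% to 3.00% of genes.

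Leaving out wild-type replicate 1 changed calls at 8 hpf. Mutant libraries lay between the 2 wild-type ones for hsp90aa1.2, at 350 and 629 CPM, for hsp70.3, at 30.4 and 38.5 CPM, for dnajb1b, at 661 and 784 CPM, and for hspa4a, at 378 and 511 CPM. Without wild-type replicate 1, dnajb1b and hspa4a were called higher in mutants (log2 fold changes 2.63 and 1.89, adjusted p = 0.00625 and 0.0253) and hsf2 lower (log2 fold change -1.49, adjusted p = 0.0235). At 6 hpf the wild-type replicates were close for hsp90aa1.2, hsp70.3, dnajb1b, hspa4a and hspbp1, with folds of replicate 1 over replicate 2 of 1.67, 1.58, 1.14, 1.35 and 0.903. For hsp70l and dnajb1a they were not, at 0.0346 and 0.327, with replicate 2 high. No label sets the wild-type libraries apart.

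**Figure D3:**
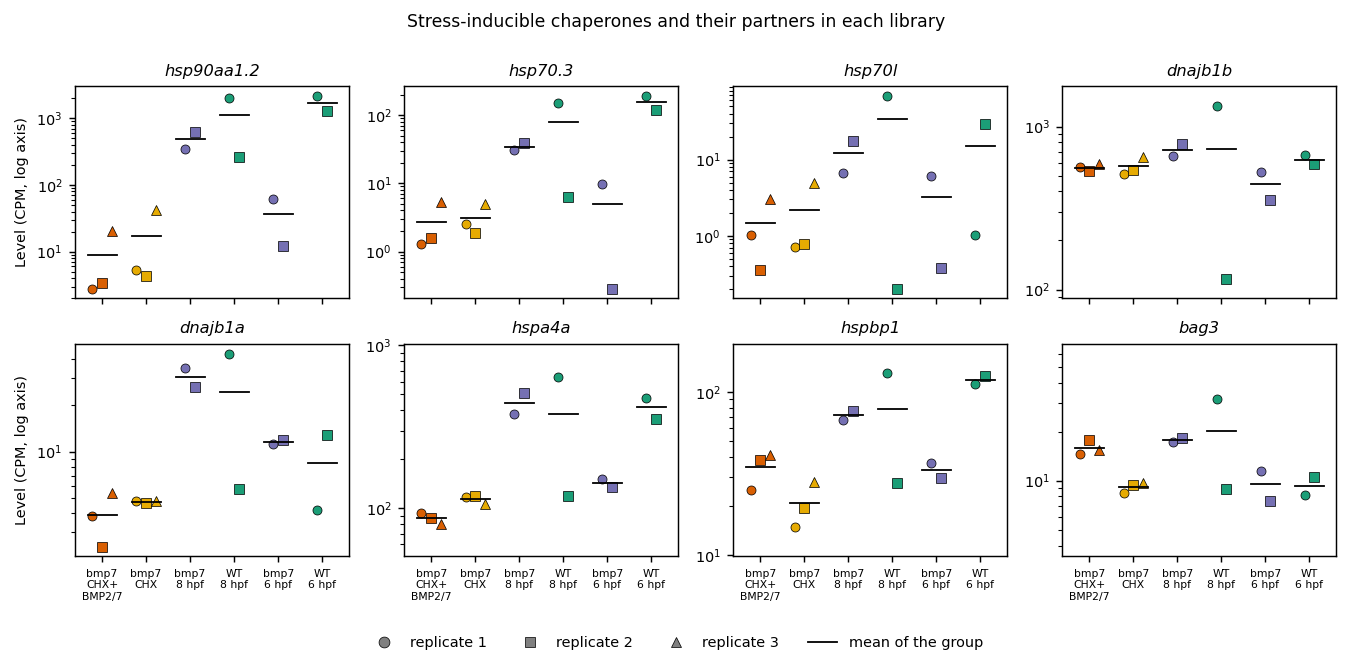
Levels of 8 stress-inducible chaperones and partners in each library (CPM on a log axis), by group, with the replicate number as the symbol and the group mean as a bar. In wild-type embryos at 8 hpf replicate 1 is the high library in every panel, as in hsp70l at 67.7 against 0.203 CPM.

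The comparison between stages in mutants uses the same 6 hpf libraries in which members had been found low. A rise at 8 hpf in those members is thus favoured in advance and is no separate evidence. In mutants, 7 of 71 members were called between stages, 6 higher and 1 lower at 8 hpf. These are 9.86% of the members, 8.45% higher and 1.41% lower. Of all genes 10.9% were called in either direction, 5.31% higher and 5.57% lower. hspe1 stood at 151 and 207 CPM at 8 hpf against 40.8 and 61.9 CPM at 6 hpf (log2 fold change 1.84, SE 0.29, adjusted p = 0.00856). hsp90aa1.2 stood at 350 and 629 CPM at 8 hpf against 12.3 and 62.0 CPM at 6 hpf (log2 fold change 3.76, SE 0.97, adjusted p = 0.0388). In both, the stages did not overlap, as in 49 of 71 members and 61.1% of all genes. dnajb2 had 41 counts at 8 hpf and 3 at 6 hpf, a ratio of 13.7 with a counting interval of 4.38 to 69.4. hspa13 rose by a log2 fold of 1.52, hspa5 by 1.17 and cct5, a CCT subunit, by 0.72 (adjusted p = 0.0132, 0.0491 and 0.0353), while hsf2 stood at 31.3 and 33.1 CPM at 8 hpf and 68.3 and 79.5 CPM at 6 hpf and fell by 1.16 (adjusted p = 0.0278).

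Fewer of these stage calls were made with 1 library left out, as over all genes. Leaving out 8 hpf replicate 2 left 0 called members (0.517% of all genes), and leaving out 8 hpf replicate 1 left 1 (2.61%). Leaving out 6 hpf replicate 1 left 2 (1.29%) and 6 hpf replicate 2 left 4 (7.62%). Without 8 hpf replicate 2 the log2 fold change of hspe1 was 1.60 (adjusted p = 0.0947), that of hspa13 was 1.64 (adjusted p = 0.0992) and that of dnajb2 was 4.09 (adjusted p = 0.119), while hspa5 had an adjusted p of 0.31, cct5 of 0.192, hsp90aa1.2 of 0.202 and hsf2 of 0.216. The call of hspe1 held without any 1 of the other 3 libraries. Those of hsp90aa1.2, hsf2, cct5 and hspa5 were lost when any 1 of the 4 libraries was left out. For hspa13 and dnajb2, leaving out 1 library lost the call in 3 of 4 cases. The call of hspa5 was also lost with RLE factors, and that of hsp90aa1.2 over all 14 libraries. Without 8 hpf replicate 2, the mutant group at 8 hpf was the smallest library alone, at 5034277 counts. At 6 hpf the 2 mutant libraries enter both this comparison between stages and the one between genotypes. In wild-type embryos, 0 of 71 members were called between stages by edgeR, against 1.75% of all genes, 1.07% higher and 0.688% lower. A total of 7 had an unadjusted p under 0.05, against 17.4% of all genes, and DESeq2 called 1, against 5.74% of all genes. The smallest adjusted p was that of dnajb6a, a J-domain gene whose mammalian relative keeps aggregation-prone proteins soluble, at 44.4 and 51.9 CPM at 8 hpf against 77.9 and 91.8 CPM at 6 hpf (log2 fold change -0.82, adjusted p = 0.0963).

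The test of whether the genotype difference itself changed between stages called 0 of 71 members, against 0% of all genes. A total of 11 members had an unadjusted p under 0.05, 15.5% of those tested against 5.53% of all genes, and DESeq2 called 4, against 0.279% of all genes. hspa13, dnajb2, hspa5 and hspe1 were those 4, with log2 differences of 1.89, 4.46, 1.95 and 1.68 (8 hpf over 6 hpf) and adjusted p of 0.599, 0.647, 0.665 and 0.695 in edgeR, and 0.0399, 0.0364, 0.0126 and 0.0342 in DESeq2. Without wild-type replicate 1 at 8 hpf, edgeR called dnajb1b, hspa4a and hspbp1 (log2 differences 3.18, 3.47 and 3.27, adjusted p = 0.0315 each). The smaller number of calls at 8 hpf than at 6 hpf is thus not shown to be a difference between stages.

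BMP2/7 protein in CHX-treated embryos labelled mutant asks which genes respond to BMP without new translation. As no group was injected without protein, the protein and the injection cannot be told apart in this comparison. Of 66 members tested, 0 were called by edgeR without the replicate number as a block, against 2.26% of all genes, 1.91% higher and 0.349% lower. At an unadjusted p under 0.05 there were 4 members, against 10.3% of all genes, and DESeq2 called 1, bag3, against 3.97% of all genes. The 2 groups did not overlap in 4 of 66 members and in 16.2% of all genes. The median log2 fold change of the members was -0.03, and the class medians ran from -0.31 for hspb1, the small heat shock gene tested, to 0.49 for hspbap1 and hspbp1.

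Same-numbered CHX libraries deviated together, and with the replicate number as a block 6 members were called, 2 higher and 4 lower with BMP2/7 protein. With the block 7.94% of all genes were called, a share near that of the members. bag3, which couples HSP70 to autophagy in mammals, stood at 14.5, 17.9 and 15.4 CPM with BMP2/7 and at 8.39, 9.40 and 9.61 CPM with CHX alone. All 3 injected libraries were above all 3 others, with a log2 fold change of 0.82 (SE 0.17, adjusted p = 0.0556 without the block and 0.00509 with it). hspbp1 stood at 24.9, 38.3 and 41.0 CPM with BMP2/7 against 14.8, 19.3 and 28.0 CPM with CHX alone, higher in each same-numbered pair (log2 fold change 0.78, adjusted p = 0.361 without the block and 0.00397 with it). The lower members were hsp90aa1.2 (log2 fold change -0.83, adjusted p = 0.0164), hspa4a (-0.37, adjusted p = 0.0303), hspb1 (-0.30, adjusted p = 0.0469) and hspe1 (-0.55, adjusted p = 0.0495), all values with the block. hspe1 stood at 17.7, 16.1 and 13.9 CPM with BMP2/7 and at 20.6, 25.7 and 24.6 CPM with CHX alone, without overlap. For hsp90aa1.2, replicate 3 was the high library of each group, at 20.2 CPM with BMP2/7 and 42.6 CPM with CHX alone, while the others stood at 2.77 to 5.26 CPM. In the fit without the block, 1 of 18 HSP90 co-chaperones was higher, fkbp5 (log2 fold change 2.30), and the ER stress factor xbp1 was lower (log2 fold change -0.90).

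**Figure D4:**
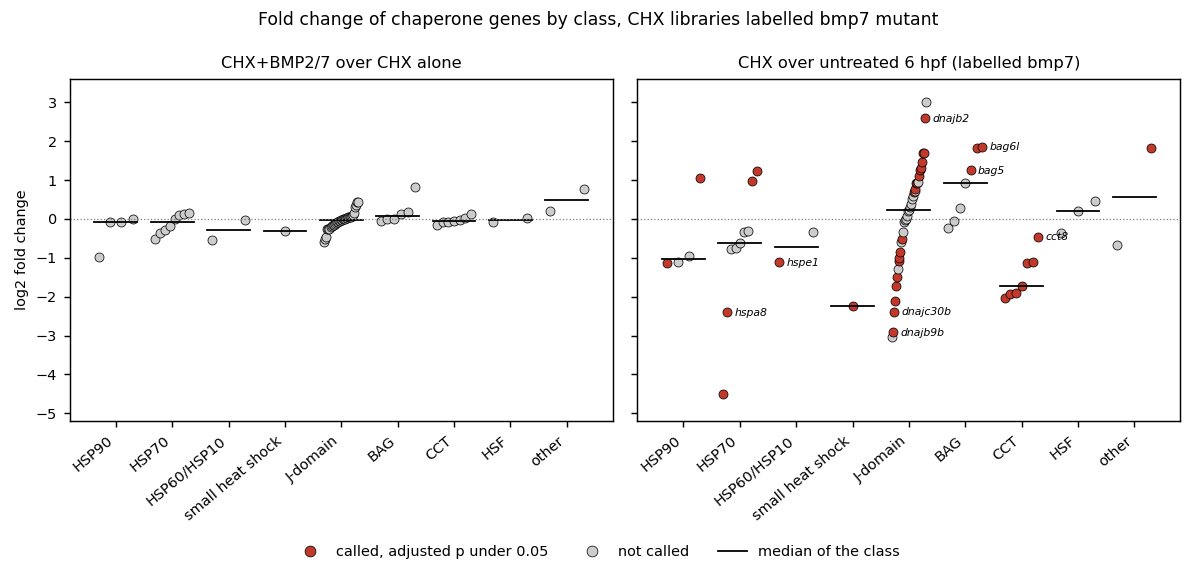
Log2 fold change of the members by class for CHX with BMP2/7 protein over CHX alone (left, 66 genes) and for CHX-treated over untreated 6 hpf mutants (right, 72 genes, all libraries by their mutant label), with 1 point per gene, called genes in red and the class median as a bar. The lowest HSP70 point on the right is hspa12b, at 0 counts with CHX, whose fitted value is no estimate of size. On the right all 7 CCT subunits are red and under 0, and on the left no point is red.

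CHX libraries labelled mutant were set beside untreated 6 hpf mutants to give the level of each member under blocked translation. Treatment, experiment, time of collection and handling cannot be told apart in this comparison, and it is large for all genes. Of 72 members tested, 39 were called, 18 higher and 21 lower with CHX, against 58.0% of all genes, 29.7% higher and 28.3% lower, so the share of members called was no higher than the background. With total counts in place of TMM factors all genes moved up by 0.53 on the log2 scale, and the members split into 25 higher and 16 lower. Fold changes here are relative to the TMM scale. The CHX and untreated libraries did not overlap in 51 of 72 members and in 72.4% of all genes.

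The CCT complex showed the most uniform direction of the classes with over 2 members. All 7 subunits measured were lower with CHX, by log2 fold changes of -2.03 (cct6a), -1.94 (cct3), -1.92 (cct2), -1.73 (cct4), -1.13 (cct5), -1.11 (cct7) and -0.45 (cct8). Without factors cct8 had a log2 fold change of 0.076, above 0, and the other 6 stayed lower. cct3 (NM_173250) stood at 124.8, 156 and 127 CPM with CHX and 476 and 571 CPM in untreated mutants, and cct8 at 244, 228 and 210 CPM with CHX and 333 and 290 CPM in untreated mutants. No CHX library reached an untreated one for either gene. Without untreated replicate 1 cct8 was not called (adjusted p = 0.125). The remaining subunit gene, tcp1, fell by 1.12, and the 5 prefoldin and phosducin-like genes that pass clients to CCT were lower as well. Across all 14 libraries cct3 and cct6a had a correlation of 0.997 on the log scale, with cct6a the closest of all genes to cct3. Genes outside the family were nearly as close, such as psma8 at 0.996, and the next subunit, cct4, ranked 36. The points share groups. Over the 8 untreated libraries the correlation of cct3 with cct6a was 0.865, at rank 132 among 9436 genes.

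Of other abundant cytosolic members, hspb1, hsp90ab1 and hspa8 were lower and dnajc7 was higher. hspb1 stood at 744, 1035 and 811 CPM with CHX and 4046 and 4051 CPM in untreated mutants (log2 fold change -2.23, SE 0.17, adjusted p = 7.05e-07). hsp90ab1 stood at 2031, 2100 and 1884 CPM with CHX against 4373 and 4507 CPM in untreated mutants (log2 fold change -1.15, adjusted p = 2.4e-06). In both the groups were far apart and the replicates close. hspa8, the constitutive HSP70, stood at 29.9, 30.4 and 47.6 CPM with CHX and 178 and 199 CPM in untreated mutants (log2 fold change -2.39, adjusted p = 0.017), and missed the threshold without untreated replicate 2 (adjusted p = 0.0611) or CHX replicate 1 (adjusted p = 0.0547). dnajc7, which passes clients between HSP70 and HSP90 in mammals, stood at 268, 264 and 262 CPM with CHX and 164 and 163 CPM in untreated mutants (log2 fold change 0.70, adjusted p = 0.000179). dnajb1b overlapped, at 515, 542 and 655 CPM with CHX and 527 and 355 CPM in untreated mutants, and was not called (adjusted p = 0.613). Of the mitochondrial chaperonin, hspe1 stood at 20.6, 25.7 and 24.6 CPM with CHX against 40.8 and 61.9 CPM in untreated mutants (log2 fold change -1.12, adjusted p = 0.0012). Its partner hspd1 stood at 302 to 321 CPM with CHX and 391 and 396 CPM in untreated mutants and was not called (adjusted p = 0.0678).

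**Figure D5:**
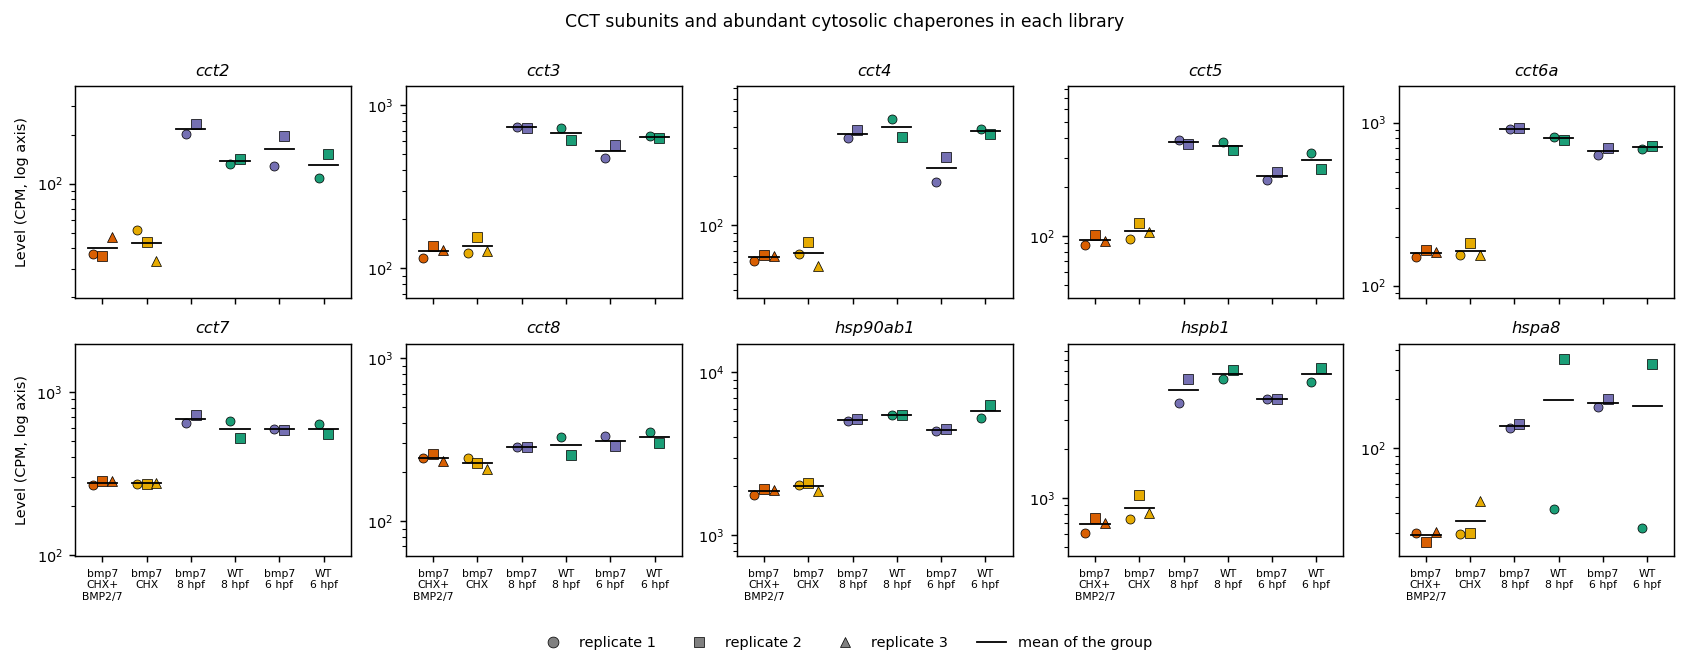
Levels of the 7 CCT subunits, hsp90ab1, hspb1 and hspa8 in each library (CPM on a log axis), by group, with the replicate number as the symbol and the group mean as a bar. All 6 CHX libraries lie under all 8 untreated ones for cct3, hsp90ab1 and hspb1, and for hspa8 wild-type replicate 1 lies low at both stages, at 42.2 and 32.4 CPM.

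The members that serve the ER did not share a direction. hsp90b1 stood at 105, 82.7 and 119.4 CPM with CHX and 48.4 and 49.5 CPM in untreated mutants (log2 fold change 1.06, adjusted p = 0.000801), still under the 168 and 169 CPM of wild-type embryos at 6 hpf. hspa5 stood at 272, 159 and 231 CPM with CHX and 88.2 and 138 CPM in untreated mutants (log2 fold change 0.96, adjusted p = 0.0178), and dnajb11 at 77.3, 66.6 and 80.9 CPM with CHX and 48.7 and 38.8 CPM in untreated mutants (log2 fold change 0.78, adjusted p = 0.00618). None of these 3 overlapped. hspa5 was not called without untreated replicate 1 (adjusted p = 0.164) or CHX replicate 1 (adjusted p = 0.0642), nor dnajb11 without untreated replicate 2 (adjusted p = 0.076). Both dnajb9 genes were lower, dnajb9b at 0.318 to 0.996 CPM with CHX against 3.78 and 6.21 CPM in untreated mutants (log2 fold change -2.92) and dnajb9a with a log2 fold change of -1.72. hspa13 stood at 2.06, 1.84 and 4.05 CPM with CHX and 4.50 and 4.54 CPM in untreated mutants (adjusted p = 0.069), and dnajc10 at 54.7, 56.1 and 55.6 CPM with CHX and 48.1 and 56.6 CPM in untreated mutants (adjusted p = 0.707), and neither was called. Outside the family, 6 of 12 ER folding genes were higher, among them p4hb (log2 fold change 1.73), and 2 lower, canx (-1.97) and serpinh1b (-3.96).

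Of 7 BAG genes tested, 3 were higher with CHX and 0 lower. bag6l stood at 52.7, 55.7 and 36.8 CPM with CHX and 15.6 and 11.1 CPM in untreated mutants (log2 fold change 1.86). bag4 stood at 46.7, 27.8 and 43.8 CPM with CHX against 13.1 and 9.36 CPM in untreated mutants (log2 fold change 1.81), and bag5 at 37.1, 21.8 and 30.6 CPM with CHX against 15.2 and 9.74 CPM in untreated mutants (log2 fold change 1.25). The call of bag5 was lost without untreated replicate 2 (adjusted p = 0.0577). Of 37 J-domain genes tested 11 were higher and 9 lower, 29.7% and 24.3%, against the background of 29.7% and 28.3%. The higher ones included dnajb12a (log2 fold change 1.69) and dnajc18 (1.095), both anchored in the ER membrane, dnajc1 (1.26), an ER J-domain protein, and dnajb6a (0.93). The lower ones included dnajb14 (-1.096), a relative of dnajb12a in the ER membrane, and dnajc30b (-2.39) and dnajc19 (-1.49), which serve mitochondria in mammals, with dnajc19 lost without untreated replicate 2 (adjusted p = 0.0722). dnajb2 had 40 counts over the 3 CHX libraries and 3 over the untreated ones, a ratio of 6.33 with a counting interval of 2.01 to 32.0, and was lost without untreated replicate 2 (adjusted p = 0.0976). hspa12b had 0 counts with CHX and 4 in untreated mutants, a ratio whose 95% counting interval reaches up to 0.719, and its call was lost without untreated replicate 2 (adjusted p = 0.15).

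The inducible genes did not pass the test in this comparison. hsp90aa1.2 stood at 5.26, 4.36 and 42.6 CPM with CHX and 62.0 and 12.3 CPM in untreated mutants (adjusted p = 0.389), and hsp70.3 at 2.49, 1.84 and 4.92 CPM with CHX and 9.81 and 0.284 CPM in untreated mutants (adjusted p = 0.597). Both overlapped between groups. hsf1 stood at 269, 329 and 291 CPM with CHX and 432 and 332 CPM in untreated mutants (adjusted p = 0.0679).

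Markers of the outer layers moved with this comparison. All 4 enveloping layer genes tested were lower, and the sum of the 5 measured of 6 on the list ran from 422 to 1050 CPM with CHX and from 6990 to 7476 CPM in untreated mutants. krt5 was at 0 in every CHX library and at 0.360 and 0.0946 CPM in untreated mutants, near 0 in both, and cyt1 stood at 0.238 to 9.87 CPM with CHX against 778 and 851 CPM in untreated mutants. Both yolk syncytial layer genes measured, of 3 on the list, were lower, with sums of 3.41 to 19.9 CPM with CHX and 105 to 225 CPM in untreated mutants. Their part in the chaperone levels was not tested.

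A few members differed between replicates in a way that repeated across groups. dnajc9, a J-domain histone chaperone, stood at 17.0 CPM in mutant replicate 1 at 8 hpf and 19.7 CPM in mutant replicate 1 at 6 hpf, and at 25.2 CPM and 24.1 CPM in wild-type replicate 2 at 8 hpf and at 6 hpf. In the other 4 untreated libraries it stood at 0.189 to 1.198 CPM. hspa8 stood at 133 to 199 CPM in the 4 untreated mutant libraries, between the 354 and 329 CPM of wild-type replicate 2 and the 42.2 and 32.4 CPM of wild-type replicate 1 at 8 hpf and at 6 hpf. Among the CHX libraries, dnajc11a stood at 0.250 CPM in replicate 3 with BMP2/7 and at 0 CPM in replicate 3 with CHX alone, and at 8.99 to 12.2 CPM in replicates 1 and 2. dnaja3a, a J-domain gene of mitochondria in mammals, stood at 0.918 and 1.11 CPM in these libraries and at 3.62 to 10.3 CPM in the others.

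The 13 members that entered no test were near 0 throughout. They were hsf4, hspa14, hspa4b, dnajb13, dnajb4, dnajb6b, dnajc28, dnajc3a and the small heat shock genes hspb6, hspb7, hspb9, hspb11 and hspb15. Of the small heat shock genes hspb1 was thus the 1 that could be tested. dnaja3b had the same counts as LOC554962 in all 14 libraries, so its reads cannot be assigned to one of them.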

How the data were processed

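Polyadenylated RNA of whole embryos was sequenced in 14 libraries (stranded TruSeq kit). The authors aligned the reads to GRCz11 with RNA-seq Unified Mapper and deposited raw counts for each RefSeq transcript. Mapper version, and the use of strand in counting, were not given in the sources used here. Their notes also name edgeR. The 14 deposited log2 columns of single samples, and the fold changes, p-values and FDR of the authors' own comparisons, were not used.

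From the counts, all 14532 transcripts entered edgeR 4.0.16 (R 4.3.3) with TMM, filterByExpr at a minimum count of 10, the quasi-likelihood test and Benjamini-Hochberg adjustment over all transcripts tested, with calls at an adjusted p under 0.05. One fit held the 8 untreated libraries in 4 groups, another the 6 CHX libraries in 2, and CHX was set against untreated over all 14. Library headings gave the replicate numbers. For the CHX libraries the deviations of same-numbered pairs correlated at 0.415, 0.744 and 0.644, so the numbers pair them. This comes from the data and not from a label. Alternatives were DESeq2 1.42.0, RLE factors, total counts, other filters, other sets of libraries, 1 transcript per gene, a replicate block and leaving out each library. A run on simulated counts, with the same spread set for every gene, required recovery of the largest changes only. It does not bear on the smaller changes or uneven replicates reported here.

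The members, gene lists and tests were chosen with earlier results of these data known. Named were most of a fixed core of chaperone genes, and every called member where there were at most 10. Otherwise up to 8 per direction were named, with the largest fold change, no overlap and a mean log2 CPM of 1 or more. A few were added after their values were seen. Of the core, dnaja1, dnajc5gb, bag1, bag2 and bag6 were called in no main fit and are not described above. Of 85 symbols, 83 are in the RefSeq table for GRCz12tu, which was used for names and neighbours only. Promoter and protein sequences were not analysed here.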

Additional observations from a re-analysis of the deposited data

How the results depend on the processing

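Named members were tested under each alternative, 84 pairs of a member and a comparison and 1111 values in all. The side of the threshold held in 992, 78 were no longer called and 39 became called. Another 2, called in the main fit, turned direction and were uncalled. These were cct8 (log2 fold change 0.076) and dnajc2 (0.0077) in CHX against untreated mutants with total counts. A turn of direction between uncalled fits was counted among the 992. One such case was hsp70l at 6 hpf, whose log2 fold changes of mutant over wild-type ran from -5.30 to 1.60. Cause was not tested for any of these.

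The count of called members is given with the share of all genes called in parentheses. Mutants against wild-type at 6 hpf gave 13 called members (15.4%), 20 with a replicate block (24.0%), 20 over all 14 libraries (22.4%) and 5 to 12 without 1 library (2.50% to 12.6%). At 8 hpf there was 1 (3.15%), against 3 by DESeq2 (9.12%), 2 with total counts (3.25%), 3 without a filter (4.68%), 4 with a replicate block (9.38%), 2 with the 2 groups alone (6.01%), 5 over all 14 libraries (8.82%) and 0 to 3 without 1 library (0.422% to 1.12%). Between stages in mutants there were 7 (10.9%), against 12 with a replicate block (16.5%), 14 with the 2 groups alone (16.4%), 11 over all 14 libraries (16.9%) and 0 to 4 without 1 library (0.517% to 7.62%). In wild-type embryos there were 0 (1.75%), against 1 by DESeq2 (5.74%), 2 with a replicate block (5.23%), 1 over all 14 libraries (5.07%) and 0 to 2 without 1 library (0.115% to 2.17%). The difference of genotype effects gave 0 (0%), against 4 by DESeq2 (0.279%) and 0 to 3 without 1 library (0% to 0.0574%). CHX with BMP2/7 against CHX alone gave 0 (2.26%), against 1 by DESeq2 (3.97%), 1 with total counts (2.31%), 6 with the replicate block (7.94%) and 0 without any 1 library (0.917% to 1.99%). CHX against untreated mutants gave 39 (58.0%), against 43 with the replicate block (58.5%) and 29 to 42 without 1 library (43.1% to 55.2%).

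Same-numbered untreated libraries share a number and no stated source, with correlations of 0.236 between genotypes at 6 hpf, -0.025 at 8 hpf, 0.372 between stages in mutants and 0.483 in wild-type embryos. With 2 libraries a group, the residual spread is shared over all untreated groups, and a lone library left in a group is assumed to vary like the others. Members at a few counts, such as dnajb2 at 6 hpf in mutants, are limited by depth.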
